A study of Homo sapiens with 10 samples.

Results

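RNA from human pluripotent stem cells that carried a short hairpin RNA against MAFK was compared with RNA from the same cells carrying a hairpin against luciferase, a gene that human cells lack. The comparison takes in 4 of the 10 libraries of the series, 2 labelled shMAFK and 2 labelled shLUC, and was chosen by those labels. All 14785 rows of the single-library table were used, of which 13808 are genes, 973 are transposable element (TE) subfamilies and 4 are tRNA rows. The other 6 libraries are duplicates of 3 further knockdowns, shSMARCA4, shE2F6 and shKDM1A, made in the same cells, and the study as a whole asked which of these proteins shape genome folding at TEs.

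All groups were H1 human embryonic stem cells, an established line, labelled wild type, grown on Matrigel in mTeSR1 medium and infected with shRNA virus packaged in 293T cells. The shMAFK and shLUC groups alike then went through puromycin selection, so the controls carry a virus and the drug too. The labels name neither the hairpin sequence nor how many hairpins were used per target, and the hairpin sequences were not analysed here. The experiments are described as biological duplicates of a single line, so every p-value below measures the spread between 2 cultures per group.

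MAFK is a small MAF protein, a basic leucine zipper factor that binds DNA but has no activation domain of its own. It acts by pairing. With the cap'n'collar factors NFE2L1, NFE2L2 and NFE2L3 it activates genes of the antioxidant and proteasome programmes, and with BACH1 or BACH2, or as a homodimer, it represses genes at the same class of DNA element. KEAP1 is the adaptor that marks NFE2L2 for degradation.

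The values are the authors' normalized tag counts, whole numbers that were already scaled to share the same distribution: each library has a median of 594 and the totals lie between 22836548 and 22855295. The sequencing depth is therefore unknown, and levels are comparable between libraries for a given row, not between genes. Above 15000 the values fall on a ladder of shared steps, so identical values in the most abundant rows are ties in rank. Values below 15000 also recur between genes, such as 11997 for L1TD1 and TDGF1, so steps are not confined to the most abundant rows. Replicates on the same step show no spread, so the SE of such a row can understate the spread between cultures. Replicates of a group differed with an SD (log2 scale) of 0.264 for shMAFK, 0.275 for shLUC, 0.308 for shE2F6 and 0.335 for shSMARCA4, against 0.53 for shKDM1A, which was left out of the estimate of the spread. The pluripotency genes were present throughout the 4 libraries. POU5F1 stood at 35710 and LIN28A at 41812 in each of them, SOX2 at 6408 and 6928 in shLUC and 7576 and 7680 in shMAFK, and NANOG at 2512 and 2639 against 2576 and 1640.

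The targeted transcript itself was not lower beyond the spread between replicates. MAFK (ENSG00000198517, GRCh38 chromosome 7, 1530714 to 1543043, plus strand) had normalized tag counts of 212 and 288 in the shLUC libraries and 82 and 216 in the shMAFK libraries. The first shMAFK library lay below both controls and the second lay between them, so the groups overlapped. The log2 change was −0.89 (SE 0.40, n = 2 against 2, limma, Benjamini-Hochberg adjusted p = 0.36 over all rows), a mean of 59.6% of control. Without shMAFK replicate 1 the log2 change was −0.19, and without shMAFK replicate 2 it was −1.58. The other knockdowns held MAFK at 210 to 384. The directions given below therefore belong to the libraries labelled shMAFK, and whether they follow the loss of MAFK protein was not tested.

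The partner factors gave no change past the threshold. Of the 10 small MAF and partner genes listed, 8 were in the table, and none had an adjusted p under 0.05, where 0.23% of all rows did. BACH2, a repressor partner, read 90 and 122 in shLUC and 194 and 214 in shMAFK. Its shMAFK libraries lay above all 8 others, with a log2 change of 0.95 (SE 0.24, adjusted p = 0.14) against shLUC and 1.68 (adjusted p = 0.00433) against the mean of shSMARCA4 and shE2F6. NFE2L3 read 6647 and 6408 in shLUC and 4612 and 2870 in shMAFK, below all 8 others, with a log2 change of −0.84 (SE 0.23, adjusted p = 0.15). NFE2L1, whose protein drives proteasome genes, read 3820 and 5300 in shLUC and 7784 and 6746 in shMAFK, with no overlap and a log2 change of 0.69 (SE 0.22, adjusted p = 0.204). The nearest small MAF relative, MAFG, read 680 and 1040 against 1068 and 1444. For NFE2L2, BACH1 and KEAP1 the log2 changes were 0.28, 0.03 and 0.17.

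**Figure D1:**
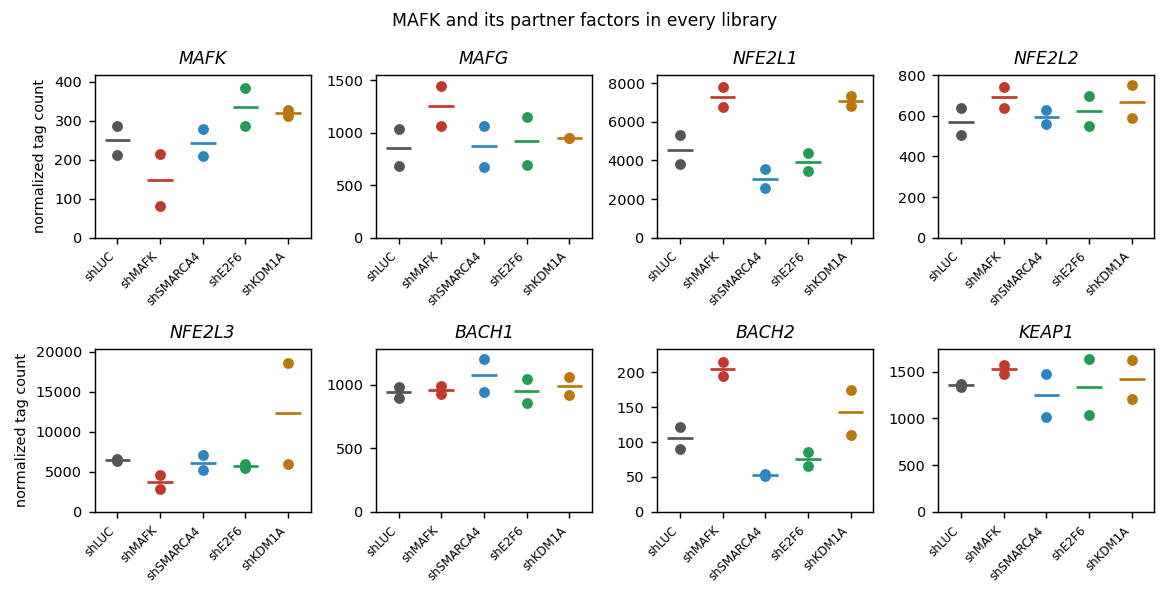
Normalized tag counts (linear axis from 0) of MAFK and 7 partner or regulator genes in each of the 10 libraries, by group; points are libraries and bars are group means. For MAFK the second shMAFK library, at 216, sits between the shLUC libraries at 212 and 288, while both BACH2 values in shMAFK, 194 and 214, stand above every other library.

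Across the whole table, 34 rows differed between shMAFK and shLUC at an adjusted p under 0.05, which is 0.23% of the 14785 tested. Of these, 21 were higher in shMAFK (0.142% of all rows) and 13 lower (0.0879%). All 34 are genes, 30 of them protein-coding, and no TE row is among them. An unadjusted p under 0.05 was reached by 2149 rows (14.5%), and a log2 change of at least 1 in either direction by 337 rows (2.28%), 179 of them higher (1.21%) and 158 lower (1.07%). In all 34 rows the 2 shMAFK libraries stood clear of the 2 shLUC libraries, which held for 49.1% of all rows. With any 1 of these 4 libraries left out, most of the 34 rows no longer passed. Such a fit has 1 library in a group and fewer degrees of freedom, so the lost calls cannot be laid on a particular library. Across the alternative fits the log2 change of FASN ran from −0.83 to −0.74, and that of MDFI from −3.18 to −2.29. That of ATF5 ran from 3.67 to 4.31.

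The rise of ATF5 was the largest. ATF5 (ENSG00000169136, chromosome 19, 49928702 to 49933935, plus strand) encodes a basic leucine zipper factor whose translation is favoured when the integrated stress response is active. Its normalized tag counts were 74 and 116 in shLUC and 1530 and 1454 in shMAFK, a log2 change of 3.99 (SE 0.25, n = 2 against 2, adjusted p = 0.00238) and a ratio of means of 15.7. No other library came near: shSMARCA4 held 141 and 116, shE2F6 164 and 112, and shKDM1A 268 and 501. Against the mean of shSMARCA4 and shE2F6, a contrast in which the controls take no part, the log2 change was 3.49 (adjusted p = 0.000549).

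Several of the other large rises were in genes of metabolism and transport. SMOX, which encodes spermine oxidase of polyamine breakdown, read 85 and 96 in shLUC and 274 and 260 in shMAFK (log2 change 1.55, SE 0.21, adjusted p = 0.0395). SLC16A9, a monocarboxylate transporter gene, read 356 and 396 against 881 and 1002 (log2 change 1.32, adjusted p = 0.0356). WARS, the cytosolic tryptophanyl-tRNA synthetase, read 2061 and 2394 against 5708 and 4704 (log2 change 1.22, adjusted p = 0.0395). In all 3 genes both shMAFK libraries exceeded all 8 others, which was so for 5.14% of rows.

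Membrane and chromatin genes were also among the rises. MAL2, which encodes a raft protein of transport to the apical membrane, read 1338 and 1502 in shLUC and 4228 and 3966 in shMAFK (log2 change 1.53, SE 0.13, adjusted p = 0.00643). It stood between 2331 and 3698 in the other 6 knockdown libraries, above the controls but below shMAFK, and differed from the mean of shSMARCA4 and shE2F6 by 0.64 on the log2 scale (adjusted p = 0.0112). The overlapping antisense row MAL2-AS1 moved from 262 and 212 to 638 and 657. The counting is not stated to use strand, so reads of these rows cannot be told apart. CTCFL, a germline relative of the insulator protein CTCF, read 96 and 82 in shLUC and 252 and 284 in shMAFK (log2 change 1.58, adjusted p = 0.0343), yet 1140 and 995 in shKDM1A. H1F0, the replacement linker histone, read 3452 and 4390 against 8220 and 8852 (log2 change 1.13, SE 0.15, adjusted p = 0.0356), above all 8 others.

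AMH, the anti-Müllerian hormone gene, read 79 and 78 in shLUC and 224 and 267 in shMAFK (log2 change 1.63, adjusted p = 0.0323). RELB, a subunit of the alternative NF-κB pathway, read 53 and 52 against 132 and 136 (log2 change 1.34, adjusted p = 0.0424). Both were also high in other knockdowns: RELB read 114 to 142 in shSMARCA4 and shE2F6, and its contrast against their mean was 0.07 (adjusted p = 0.834), while AMH read 194 and 250 in shSMARCA4. MALAT1, an abundant nuclear noncoding RNA, read 1890 and 2312 in shLUC and 7784 and 6343 in shMAFK (log2 change 1.75, adjusted p = 0.049). A single shKDM1A library lay within that range at 6746. CNTNAP3, a contactin-associated cell surface protein gene with near-identical copies elsewhere on its chromosome, read 173 and 234 against 438 and 520 (log2 change 1.24), and is uncertain where reads are shared with those copies. The 9 smaller rises outside the naming rule were FAM155B, SALL3, LINC00698, ADAM9, PIEZO1, CPNE7, COL14A1, EIF4G2 and BSG, with log2 changes of 0.74 to 1.13.

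The largest named fall was in MDFI (chromosome 6, 41636882 to 41654246), an inhibitor of myogenic transcription factors. It read 580 and 564 in shLUC and 116 and 62 in shMAFK (log2 change −2.74, SE 0.36, adjusted p = 0.0356), while shSMARCA4 and shE2F6 kept it between 531 and 980. Both shKDM1A libraries were also low, at 288 and 103.

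Falls in signalling genes followed. PDE4B, a cyclic AMP phosphodiesterase gene, read 313 and 234 in shLUC and 84 and 60 in shMAFK (log2 change −1.92, SE 0.27, adjusted p = 0.0395), below all 8 others, as 4.8% of rows were. FZD2 (chromosome 17, 44557459 to 44559570), a Wnt receptor gene, read 780 and 755 against 224 and 258 (log2 change −1.67, SE 0.13, adjusted p = 0.00643). It was lower than both controls in every knockdown library, at 300 to 422 in shSMARCA4 and shE2F6 and 38 and 80 in shKDM1A. The difference between shMAFK and the mean of shSMARCA4 and shE2F6 was −0.60 (adjusted p = 0.0158). GNA14, a G protein alpha subunit of the Gq class, read 318 and 290 against 132 and 99 (log2 change −1.40). PPP1R1B, a phosphatase inhibitor known from dopamine signalling, read 320 and 404 against 108 and 132 (log2 change −1.58, adjusted p = 0.0356). Its level was lower still in shSMARCA4, at 56 and 51.

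Among cell surface and developmental genes, ST14, which encodes the membrane protease matriptase, read 883 and 896 in shLUC and 286 and 282 in shMAFK (log2 change −1.64, SE 0.23, adjusted p = 0.0395). The homeobox gene MEIS3 read 599 and 732 against 230 and 228 (log2 change −1.53, SE 0.16, adjusted p = 0.0173). SHISA2, an inhibitor of Wnt and FGF receptor maturation, read 960 and 1060 against 553 and 501 (log2 change −0.94), and COMMD1, which takes part in copper handling, read 440 and 376 against 186 and 182 (log2 change −1.14). These 4 genes were below all 8 other libraries in shMAFK. SHISA2 went the other way in shSMARCA4, at 2332 and 2376.

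IGFBP2, a binding protein for insulin-like growth factors, was, like FASN, BSG and EIF4G2, 1 of 4 changed rows with a value above 15000. It read 35716 in both shLUC libraries and 17675 and 19696 in shMAFK (log2 change −0.94, SE 0.10, adjusted p = 0.0173), and its rank moved from 41 to 121 and 101. The shLUC libraries stood on the same step, so this SE can understate the spread between cultures. Without the mean-variance trend, none of these 4 rows passed the adjusted threshold. Both shSMARCA4 and shE2F6 held IGFBP2 at 16619 to 19696, and the contrast against their mean was 0.06 (adjusted p = 0.702). The knockdowns thus shared the lower level, and shKDM1A, at 61943 and 41812, did not. LINC01867, outside the naming rule for its low level, read 44 and 53 in shLUC and was listed at 0 in both shMAFK libraries.

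The contrast of shMAFK with the mean of shSMARCA4 and shE2F6 shows which of these values differed from the average of those 2 knockdowns. It leaves out shKDM1A, and a row that passes it can still lie on the same side of shLUC in other knockdowns. It called 1494 rows (10.1%), 763 higher in shMAFK (5.16%) and 731 lower (4.94%). This contrast and the comparison with shLUC share the 2 shMAFK libraries, so they are not independent. Of the 34 changed rows, 28 were past the threshold in both with the same direction, and none with the opposite direction. The 6 that were not are IGFBP2, EIF4G2, SALL3, PPP1R1B, RELB and FAM155B. Both shSMARCA4 libraries lay on the same side of shLUC as shMAFK in 23 of the 34 changed rows, shE2F6 in 18 and shKDM1A in 22. All 4 knockdowns did so in 10. Among all 14785 rows, both shSMARCA4 libraries lay above shLUC in 3781 and below in 3761. These counts were 3002 and 3018 for shE2F6, and 2643 and 3087 for shKDM1A. The shLUC libraries are those used in the call, so the counts are not independent of it. In 11 of the 21 higher rows the shMAFK libraries exceeded all 8 others, and in 7 of the 13 lower rows they lay below all 8. Of all rows, 5.14% and 4.8% did so. The shares are not on a par, because all 34 changed rows already stood clear of the 2 shLUC libraries. Without shMAFK replicate 2 the contrast called 135 rows, and without shMAFK replicate 1 it called 481. Against shKDM1A, from a fit of all 10 libraries, 6 rows differed (0.0406%), IGFBP2 (log2 difference −1.45) and CTCFL (−1.99) among them.

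**Figure D2:**
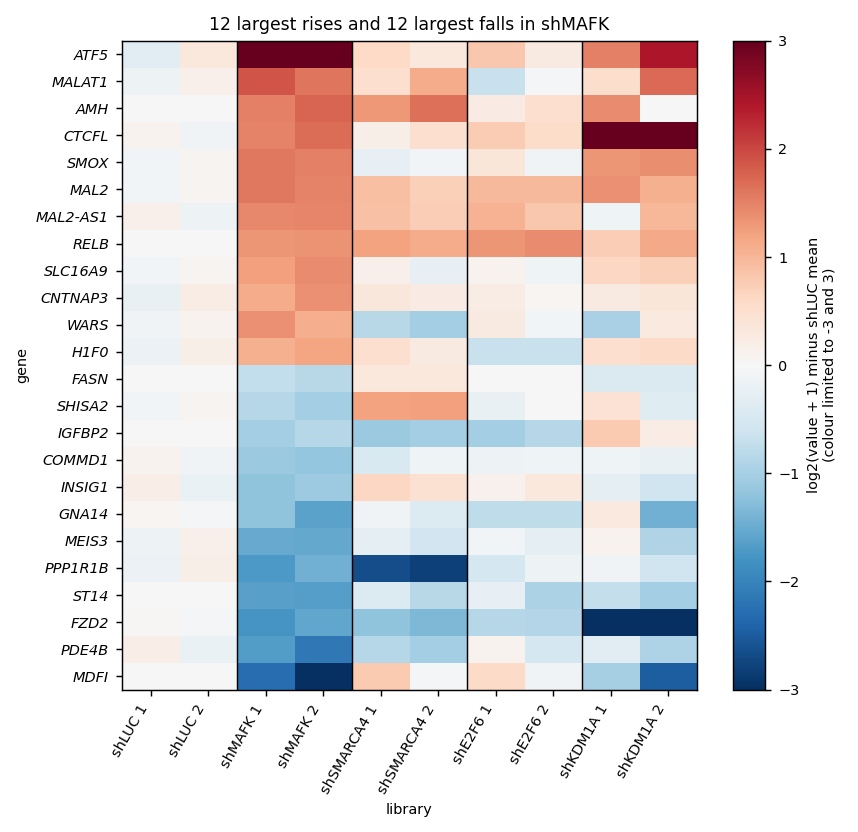
The 12 largest rises and 12 largest falls past the threshold (rows) in all 10 libraries (columns), as log2(value + 1) minus the mean of the shLUC libraries; colours stop at −3 and 3. ATF5 stands out in both shMAFK columns with 1530 and 1454 tag counts, whereas the falls of FZD2 and IGFBP2 appear in several knockdowns.

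Genes of the integrated stress response were higher in both shMAFK libraries. In this response a phosphorylated initiation factor slows translation while the factor ATF4 is made, and ATF4 with its partners then switches on genes for amino acid uptake, amino acid synthesis and tRNA charging. Of 36 listed genes, 34 were in the table, with a median log2 change of 1.02 against 0.00 over all rows. An unadjusted p under 0.05 in the higher direction was reached by 30 of them, against 6.93% of all rows, and in the lower direction by none. ATF5 alone was past the adjusted threshold. Against the mean of shSMARCA4 and shE2F6 the median log2 difference was 1.29, and 28 of the 34 were higher at an adjusted p under 0.05, where 5.16% of all rows were. This list, like all 24 lists used here, was chosen with earlier results of these data known. Its counts beside the share of all rows are therefore description and not an independent test.

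Enzymes and regulators of the response gave values of the same kind. TRIB3, a pseudokinase that restrains the response, read 96 and 224 in shLUC and 1022 and 540 in shMAFK (log2 change 2.33, SE 0.42, adjusted p = 0.0711). PCK2, the mitochondrial phosphoenolpyruvate carboxykinase, read 916 and 2606 against 8086 and 6343 (log2 change 2.21, SE 0.40, adjusted p = 0.0711). SLC1A5, a glutamine transporter gene, read 6746 and 7784 against 11635 and 10950 (log2 change 0.64, SE 0.11, adjusted p = 0.0703). In these 3 genes the shMAFK and shLUC libraries did not overlap, as in 49.1% of all rows. All 3 genes differed from the mean of shSMARCA4 and shE2F6, by 3.22, 3.15 and 1.06 on the log2 scale (adjusted p = 0.00311, 0.0028 and 0.00164). ATF4 itself, which is controlled mainly in translation, read 4526 and 6012 against 6647 and 6077 (log2 change 0.28, adjusted p = 0.539).

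The size of this difference depends on which control library is taken. The first shLUC library was below the second in 33 of the 34 genes. Relative to the shLUC mean, the median over the 34 genes was −0.38 and 0.38 in the shLUC libraries, 1.04 and 0.87 in shMAFK, −0.63 and −0.70 in shSMARCA4, −0.12 and −0.33 in shE2F6, and 0.81 and 0.72 in shKDM1A. The shKDM1A medians were thus closer to those of shMAFK than to those of the other groups. None of the 34 genes differed between shMAFK and shKDM1A at an adjusted p under 0.05, but only 0.0406% of all rows did, so this count does not show that the groups are alike. Without shLUC replicate 1 the median log2 change was 0.56 and 14 genes had an unadjusted p under 0.05 in the higher direction. The corresponding values were 1.42 and 31 without shLUC replicate 2, 0.87 and 14 without shMAFK replicate 1, and 1.04 and 24 without shMAFK replicate 2. In both shMAFK libraries 13 of the 34 genes were higher than in all 8 others, against 5.14% of all rows, ATF5, PCK2, TRIB3 and ASNS among them.

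The promoters of these genes were searched for the letters TGATGNAA, the composite element that C/EBP and ATF factors share, on both strands of each RefSeq window from 250 bases before to 50 bases after a transcript start (assembly GRCh38.p14). Windows were found for 28 of the 34 genes, and 8 (28.6%) held a match in at least 1 window: ASNS, ATF3, CEBPG, CHAC1, JDP2, SLC1A5, SLC3A2 and SLC7A1. Among all 10488 gene names with a window, 300 (2.86%) held it. None of 10 higher and none of 9 lower changed rows with a window did. The windows of ASNS and CHAC1 are shown because they hold a match, and the first of 3 windows of ATF5 because that gene rose most and none of its windows held the letters. Capitals mark the match, and each sequence is written 5′ to 3′ on the strand of its gene. The lines give ASNS at chr7:97872359-97872658 (minus strand), with the match 68 bases before the start, CHAC1 at chr15:40953221-40953520 (plus strand), with the match in reverse complement 209 bases before the start, and ATF5 at chr19:49928656-49928955 (plus strand).
ASNS: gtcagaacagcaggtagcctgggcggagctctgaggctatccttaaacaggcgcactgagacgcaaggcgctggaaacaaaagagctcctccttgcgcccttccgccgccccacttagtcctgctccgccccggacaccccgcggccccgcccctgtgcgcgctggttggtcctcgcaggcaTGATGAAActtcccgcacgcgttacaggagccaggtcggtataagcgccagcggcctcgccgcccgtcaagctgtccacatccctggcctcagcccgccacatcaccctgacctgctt
CHAC1: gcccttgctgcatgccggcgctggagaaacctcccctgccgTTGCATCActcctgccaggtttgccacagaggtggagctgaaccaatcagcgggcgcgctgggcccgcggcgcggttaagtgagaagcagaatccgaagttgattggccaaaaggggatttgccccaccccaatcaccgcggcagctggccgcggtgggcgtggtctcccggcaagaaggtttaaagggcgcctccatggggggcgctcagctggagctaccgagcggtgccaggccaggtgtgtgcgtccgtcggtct
ATF5: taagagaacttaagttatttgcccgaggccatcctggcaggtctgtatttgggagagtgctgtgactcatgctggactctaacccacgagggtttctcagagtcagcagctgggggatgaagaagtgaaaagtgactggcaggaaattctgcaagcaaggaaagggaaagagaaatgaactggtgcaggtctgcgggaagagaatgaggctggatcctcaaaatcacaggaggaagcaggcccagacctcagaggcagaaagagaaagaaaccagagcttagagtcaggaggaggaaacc
ASNS and CHAC1 were chosen after their values were seen, so their values are given as description. ASNS, asparagine synthetase, read 1809 and 3506 in shLUC and 7784 and 6490 in shMAFK (log2 change 1.5, adjusted p = 0.0771). CHAC1, which degrades glutathione, read 142 and 1436 against 2818 and 1592 (log2 change 2.22, SE 0.89, adjusted p = 0.301). The 2 shLUC libraries differed more for CHAC1 than the second shLUC and the second shMAFK library did.

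Elements bound by small MAF factors were searched in the same way. The long MAF recognition element was in the windows of 44 gene names (0.42%) and in none of the changed rows, stress response genes, antioxidant genes or partner genes with a window. The shorter antioxidant response core, TGACNNNGC, was in 19% of gene names, in 4 of 10 higher and 1 of 9 lower changed rows with a window, in 6 of 17 antioxidant genes (35.3%) and in 12 of 28 stress response genes (42.9%). These letters can overlap the longer element.

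Sterol synthesis genes were lower in both shMAFK libraries. These enzymes build cholesterol and, with the LDL receptor and INSIG1, answer together to the SREBP factors when membrane sterol runs low. All 24 listed genes were in the table, with a median log2 change of −0.64. An unadjusted p under 0.05 in the lower direction was reached by 19 of them, against 7.61% of all rows, and none reached it in the higher direction. INSIG1, the sterol sensor that holds SREBP back, fell from 1124 and 848 in shLUC to 419 and 460 in shMAFK (log2 change −1.15, SE 0.16, adjusted p = 0.0428). It alone passed the adjusted threshold. The sterol list too was chosen with earlier results of these data known, so its counts are description and not an independent test.

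Enzymes at the start and middle of the pathway gave similar values. FDFT1, squalene synthase, read 6928 and 5420 in shLUC and 3583 and 3046 in shMAFK (log2 change −0.89, SE 0.15, adjusted p = 0.0537). HMGCS1, which makes the first committed precursor, read 4340 and 2910 against 1476 and 1534 (log2 change −1.24, SE 0.25, adjusted p = 0.0812). STARD4, a sterol carrier, read 1132 and 1060 against 516 and 706 (log2 change −0.86, SE 0.18, adjusted p = 0.0953). All 3 genes lay below all 8 other libraries in shMAFK, as did 14 of the 24, INSIG1 included, against 4.8% of all rows.

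The other knockdowns stood on both sides of the controls for this pathway. Relative to the shLUC mean, the median over the 24 genes was −0.58 and −0.73 in the shMAFK libraries, 0.60 and 0.35 in shSMARCA4, 0.28 and 0.26 in shE2F6, −0.33 and −0.21 in shKDM1A, and 0.17 and −0.17 in shLUC. Against the mean of shSMARCA4 and shE2F6 the median log2 difference was −1.06, and 19 of the 24 were lower at an adjusted p under 0.05 (4.94% of all rows), HMGCS1 by the log2 value of −2.39 (adjusted p = 0.00145). Without shLUC replicate 1 the median change against shLUC was −0.48, and 11 genes had an unadjusted p under 0.05. The sterol regulatory element TCACNCCAC was in the window of 1 of 18 sterol genes and in 1.52% of all gene names.

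**Figure D3:**
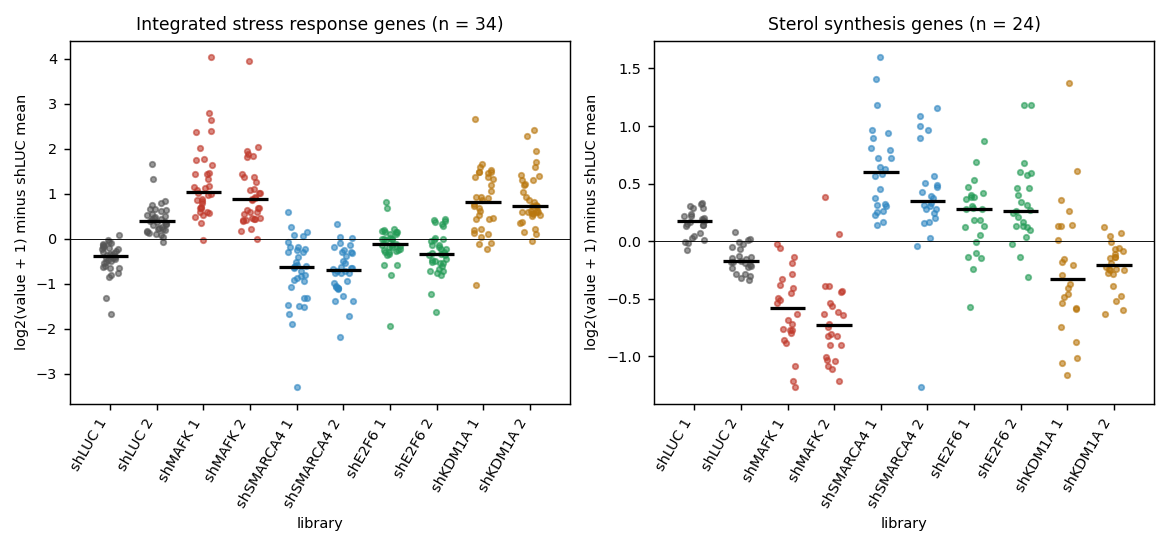
Members of the integrated stress response list (left, 34 genes) and the sterol synthesis list (right, 24 genes) in each of the 10 libraries, as log2(value + 1) minus the mean of the shLUC libraries; points are genes and bars are medians. The stress response medians are 1.04 and 0.87 in shMAFK and the sterol medians −0.58 and −0.73, and the shLUC libraries themselves lie apart at −0.38 and 0.38 for the stress response.

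Fatty acid synthesis was lower at FASN. FASN (chromosome 17, 82078333 to 82098332, minus strand), the multifunctional fatty acid synthase, fell from 41812 in both shLUC libraries to 25026 and 23459 in shMAFK (log2 change −0.79, SE 0.08, adjusted p = 0.0173), below all 8 others. The value lies on the ladder of shared steps, and its rank among the rows moved from 31 to 71 and 81. Both shLUC libraries stood on the same step, so the SE of FASN can understate the spread between cultures. Without the mean-variance trend FASN did not pass the adjusted threshold. ACSS2, which makes acetyl-CoA from acetate, read 728 and 646 against 348 and 247 (log2 change −1.22, SE 0.23, adjusted p = 0.0762). Of the 10 listed genes, 3 had an unadjusted p under 0.05 in the lower direction (7.61% of all rows) and none in the higher (6.93%), with a median log2 change of −0.31. That median was −0.17 without shLUC replicate 1.

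Glycolysis and hypoxia genes had mostly lower values. Of 26 genes in the table, 12 reached an unadjusted p under 0.05 in the lower direction (7.61% of all rows) and 1 in the higher (6.93%), with a median log2 change of −0.29 and none past the adjusted threshold. PGK1, a glycolytic kinase, read 23453 and 18607 in shLUC and 11635 and 10950 in shMAFK (log2 change −0.89, adjusted p = 0.0827). The glucose transporter gene SLC2A3 read 15764 in both controls and 10759 and 9058 in shMAFK (log2 change −0.68, adjusted p = 0.0847). PDK1, a kinase that inhibits pyruvate dehydrogenase, read 1118 and 1071 against 724 and 708 (log2 change −0.61, adjusted p = 0.105). With an unadjusted p under 0.05 in the lower direction there were 6 genes without shLUC replicate 1, and 8 without shMAFK replicate 2.

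The antioxidant, proteasome and heme and iron lists, near to the known work of MAFK, had medians of −0.03, −0.14 and 0.05 and no adjusted call. Among 24 antioxidant response genes the median log2 change was −0.03, with 3 genes at an unadjusted p under 0.05 in the higher direction (6.93% of all rows) and 4 in the lower (7.61%). The sign of that median turned without shLUC replicate 1 (0.03) and without shMAFK replicate 2 (0.09). The 2 shMAFK libraries had HMOX1, the heme oxygenase gene and a known target of BACH1, at 297 and 183, against 238 and 228 in shLUC, and NQO1, a quinone reductase gene, at 435 and 311 against 408 and 356. SLC7A11, the cystine transporter gene, which also belongs to the stress response programme, read 418 and 1728 in shLUC and 3367 and 2832 in shMAFK (log2 change 1.86, SE 0.53, adjusted p = 0.164). BLVRB, a biliverdin reductase gene, read 322 and 363 against 543 and 557 (log2 change 0.68, adjusted p = 0.116).

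All 32 proteasome subunit genes were in the table, with a median log2 change of −0.14. None reached an unadjusted p under 0.05, and 27 had a log2 change below 0, as did 7516 of all 14785 rows. The first shLUC library was above the second in 27 of the 32 genes. The proteasome median was −0.23 without shLUC replicate 2 and −0.09 without shMAFK replicate 2. Among 15 heme and iron genes the median was 0.05. TFRC, the transferrin receptor, read 3289 and 2606 in shLUC and 6647 and 6143 in shMAFK (log2 change 1.13, SE 0.28, adjusted p = 0.129), but shE2F6 held 6647 and 4340, and the contrast against the mean of shSMARCA4 and shE2F6 was 0.38 (adjusted p = 0.361).

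Stress lists other than the integrated stress response held few high values. HSPA9, the main mitochondrial HSP70, read 6078 and 6252 in shLUC and 9505 and 10352 in shMAFK (log2 change 0.69, SE 0.14, adjusted p = 0.084), above all 8 others, while the median of 12 mitochondrial chaperone and protease genes was −0.13. Endoplasmic reticulum chaperones had a median of −0.09 over 17 genes. SDF2L1, a chaperone of that compartment, read 372 and 234 against 148 and 112 (log2 change −1.19, adjusted p = 0.105). The 25 p53 response genes had a median of 0.30, with 4 genes at an unadjusted p under 0.05 in the higher direction (6.93% of all rows) and 1 in the lower (7.61%). Among them CDKN1A, the p21 cell cycle inhibitor, read 235 and 148 against 360 and 1170, and BBC3, a cell death gene, read 440 and 516 against 695 and 985. Leaving out shMAFK replicate 2 brought the p53 median to 0.07 and the higher count to 2, and leaving out shMAFK replicate 1 brought them to 0.44 and 9.

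Feedback genes of FGF and ERK signalling, which are induced by the pathway and damp it, had a median log2 change of −0.42 over 14 genes. In the lower direction 5 genes had an unadjusted p under 0.05 (7.61% of all rows), and in the higher direction 1 (6.93%). DUSP6, the cytoplasmic ERK phosphatase gene, read 2879 and 3673 in shLUC and 1722 and 821 in shMAFK (log2 change −1.45, SE 0.30, adjusted p = 0.0876). DUSP5 read 773 and 640 against 408 and 278 (log2 change −1.06, adjusted p = 0.0866). EGR1, an immediate early factor, went the other way, from 141 and 182 to 419 and 960 (log2 change 1.98, adjusted p = 0.149). With shMAFK replicate 2 left out the median came to −0.18 and the lower count to 2, with shLUC replicate 2 left out the lower count came to 2 as well, and with shMAFK replicate 1 left out the median came to −0.60. Immediate early genes as a list had a median of 0.43 over 16 genes, 5 of them with an unadjusted p under 0.05 in the higher direction (6.93% of all rows). That median was 0.24 without shMAFK replicate 1, and the count was 2 without shLUC replicate 1.

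Cell identity lists showed no adjusted call. The 20 pluripotency genes had a median log2 change of 0.01, with 4 genes higher (6.93% of all rows) and 3 lower (7.61%) at an unadjusted p under 0.05. FGF2, the growth factor that sustains these cells, read 2273 and 3226 in shLUC and 4132 and 5844 in shMAFK (log2 change 0.86, adjusted p = 0.166). The Nodal antagonist genes LEFTY1 and LEFTY2 were low throughout: LEFTY1 read 125 and 34 against 12 and 1, and LEFTY2 read 48 and 24 against 4 and 2.

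Most of the listed germ layer, trophoblast and amnion markers were not in the table. In the table were 5 of 14 ectoderm, 4 of 15 mesoderm, 3 of 13 endoderm and 5 of 13 trophoblast and amnion markers. Their summed levels were 6442 and 7606 in shLUC against 5001 and 8780 in shMAFK for ectoderm, 5562 and 4759 against 3512 and 2605 for mesoderm, 144 and 126 against 71 and 82 for endoderm, and 6510 and 6601 against 6653 and 4498 for trophoblast and amnion. Most of the mesoderm sum is KDR, a receptor gene that pluripotent cells also express, which read 5420 and 4612 against 3429 and 2512 (log2 change −0.77, SE 0.16, adjusted p = 0.0869). EOMES read 14 and 34 in shLUC and 0 and 6 in shMAFK, and CER1 read 44 and 21 against 9 and 0. FOXA2 read 4 and 2 against 0 in both shMAFK libraries. These levels were low in both groups. The shSMARCA4 libraries held far more, at 2430 and 724 for EOMES, 2354 and 172 for CER1, and 792 and 170 for FOXA2. In bulk RNA, fewer cells of a type and less RNA per cell cannot be told apart. The part of these markers in the results above was not tested.

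In the remaining lists the medians were 0.05 for 33 DNA replication genes, −0.15 for 20 mitotic genes, 0.02 for 23 apical membrane and tight junction genes, and 0.08 for 19 interferon and viral sensing genes. For 8 metallothionein and zinc sensing genes, which buffer metal ions, the median was 0.47, and none of them reached an unadjusted p under 0.05. That value turns on single libraries: it was 0.07 without shLUC replicate 1, 0.83 without shLUC replicate 2, 0.02 without shMAFK replicate 1 and 0.96 without shMAFK replicate 2. BST2, which encodes the antiviral membrane protein tetherin, read 614 and 710 in shLUC and 1050 and 1526 in shMAFK (log2 change 0.94, SE 0.19, adjusted p = 0.0812). It was far lower in shSMARCA4, at 106 and 96, and differed from the mean of shSMARCA4 and shE2F6 by 2.73 on the log2 scale (adjusted p = 0.000549).

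**Figure D4:**
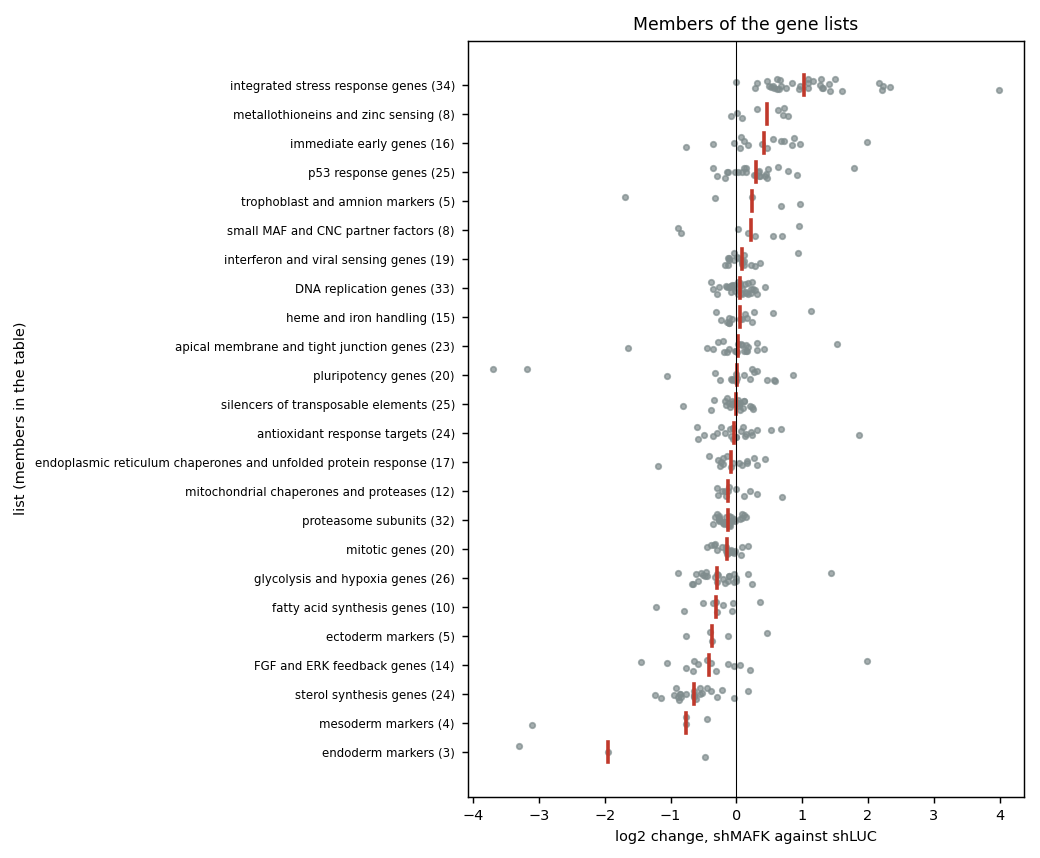
Log2 change in shMAFK against shLUC for every member in the table of the 24 gene lists; points are genes, bars are medians, and the number of members is in brackets. The integrated stress response median lies at 1.02 and the sterol synthesis median at −0.64, while the antioxidant and proteasome medians lie at −0.03 and −0.14.

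TE rows gave no call. TEs are mobile repeats whose silencing and activity mark the pluripotent state, and each row sums the reads of 1 subfamily over the genome. None of the 973 rows was past the adjusted threshold (limma, smallest adjusted p = 0.107; 1 row in each of 3 alternative fits), and an unadjusted p under 0.05 was reached by 26 in the higher direction and 15 in the lower, 2.67% and 1.54% of TE rows. Gene rows reached it in 7.23% and 8.04%. In TE rows the log2 change had a median size of 0.11. The TE share of all values was 14.5% in both shLUC libraries and 15% and 15.1% in shMAFK.

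HERVK-int, the internal part of the youngest human endogenous retrovirus family, had the largest change among the 5 TE rows with the smallest p. It read 3780 in both shLUC libraries and 6012 and 8496 in shMAFK (log2 change 0.92, SE 0.26, adjusted p = 0.169). The other knockdowns in the fit were lower, at 1166 and 1764 in shSMARCA4 and 2282 and 3474 in shE2F6. The contrast of shMAFK against their mean was 1.83 (adjusted p = 0.00417), and 9 of the 973 TE rows passed in that contrast, 7 higher and 2 lower, where 10.1% of all rows did. X5B_LINE, a row of the CR1 family, read 284 and 270 against 384 and 428 (log2 change 0.55, adjusted p = 0.107), and MER52A read 498 and 551 against 668 and 809.

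Alu rows, the abundant primate short interspersed repeats, lay mostly above 0. Of 48 Alu rows, 45 had a log2 change above 0, with a median of 0.20, against 565 of all 973 TE rows with a median of 0.03. An unadjusted p under 0.05 in the higher direction was reached by 6 Alu rows (6.93% of all rows). AluJr read 51684 in both shLUC libraries and 61939 in both shMAFK libraries, and AluSq2 read 30768 and 35710 against 41804 in both shMAFK libraries. The Alu median was 0.07 without shLUC replicate 1 and 0.09 without shMAFK replicate 2, with 1 and 3 rows at an unadjusted p under 0.05, and 0.31 with 12 such rows without shLUC replicate 2. HERVH-int, the retroviral transcript typical of human pluripotent cells, stood at 148866 in all 4 libraries, and its promoter LTR7 read 61939 in both controls against 51684 and 41804 in shMAFK (log2 change −0.41, adjusted p = 0.749). The HERVH-int and LTR7 rows were chosen after their values were seen. The values of HERVH-int, LTR7, AluJr and AluSq2 lie on the ladder of shared steps above 15000. Equal values there are ties in rank and do not show an unchanged level.

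Genes that silence TEs had a median log2 change of 0.00 over 25 members. SUV39H1, a histone H3 lysine 9 methyltransferase gene, read 497 and 389 in shLUC and 247 and 254 in shMAFK (log2 change −0.81, SE 0.15, adjusted p = 0.0743). CBX1, which encodes a heterochromatin protein that binds that mark, read 4003 and 3820 against 2794 and 3168 (log2 change −0.39, adjusted p = 0.195). Neither passed the adjusted threshold. In both genes the 2 groups did not overlap, which held for 49.1% of all rows and so does not set these genes apart.

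**Figure D5:**
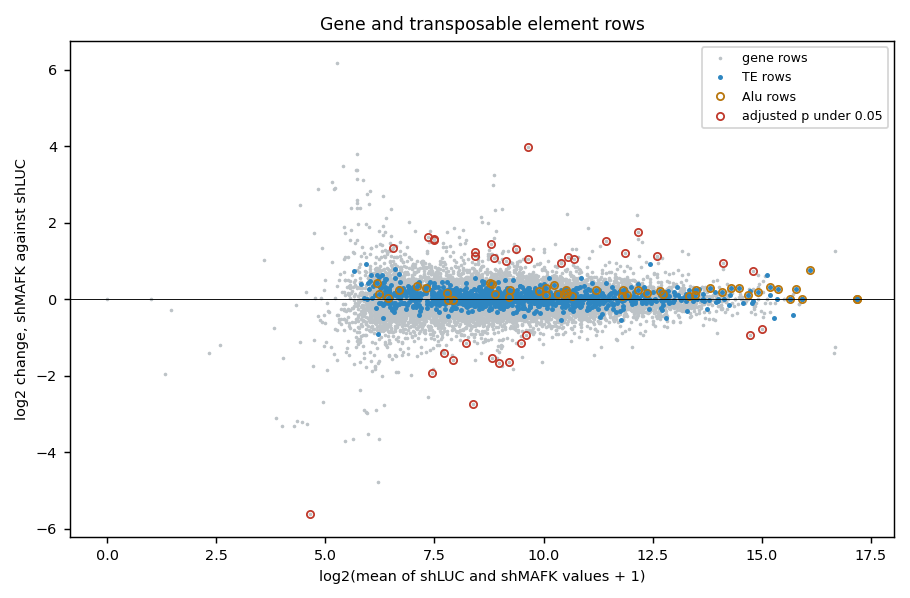
Log2 change in shMAFK against shLUC (vertical axis) by mean level (horizontal axis, log2 scale) for gene rows (grey), TE rows (blue) and Alu rows (ringed), with rows at an adjusted p under 0.05 circled in red. The 34 circled rows are all genes, and the 45 of 48 Alu rows above 0 lie close to the line, around a median of 0.20.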

How the data were processed

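Values were taken from the authors' deposited table of single libraries, which holds a score for each row: normalized tag counts in whole numbers, not raw counts. Per the submitters' processing notes the build was hg38 and the tools included STAR and STARsolo; their settings, the normalization and the use of strand are not given in the sources used here. Because depth is unknown, no count model, counting interval or detection limit was used.

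Values were fitted as log2(value + 1) with limma 3.58.1 in R 4.3.3 (linear model, empirical Bayes with a mean-variance trend, two-sided). A filter on a row mean of at least 10 removed none. The fit held 8 libraries (shLUC, shMAFK, shSMARCA4, shE2F6; 4 residual degrees of freedom), without shKDM1A, and p-values were adjusted by Benjamini-Hochberg over all 14785 rows at a threshold of 0.05. A fold change on this scale understates the change of low genes. Contrasts with shKDM1A came from a fit of all 10 libraries. The labels give no pairing of replicates, so no block was used. Correlations of replicate deviations between groups ran from −0.05 to 0.337. They were 0.337 for shSMARCA4 with shE2F6 and 0.106 for shLUC with shMAFK, so a shared replicate effect in some groups is not settled.

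Named genes were MAFK and its partners, the 12 largest rises and falls past the threshold with a group mean of at least 50, list members past it, up to 4 members with the smallest p in each list, and the 5 TE rows with the smallest p. Others are said to be outside the rule, or are ASNS, CHAC1, ATF4, HMOX1 and NQO1, chosen after their values were seen. The members and the 24 lists were chosen with earlier results of these data known. Gene positions are from GENCODE 29 on GRCh38. Promoter windows are from RefSeq and matched 10495 gene rows, 3080 with several windows. The fit was tested on simulated data.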

Additional observations from a re-analysis of the deposited data

How the results depend on the processing

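The 34 changed rows (21 higher, 13 lower) became 69 (40 and 29) with a pseudocount of 16 and 82 (48 and 34) with robust moderation. With all 10 libraries in the fit they became 2 (2 and 0), and with all 10 libraries and group weights 487 (245 and 242). Without the mean-variance trend 16 rows (11 and 5) were called, 10 of them among the 34. The fit of the shMAFK and shLUC libraries alone called 32 (23 and 9), 20 of them among the 34. The other 14 of the 34 did not pass without shSMARCA4 and shE2F6 in the fit. Leaving out each of the 8 libraries in turn gave 1 to 31 rows, with 1 to 19 higher and 0 to 14 lower; the call of most single genes thus rests on all 4 shMAFK and shLUC libraries. ATF5 stayed past the threshold in all 19 alternatives (log2 change 3.67 to 4.31, adjusted p 0.00011 to 0.036), and MAL2 and FZD2 in 17. With a replicate block, for which the labels give no pairing, 187 rows were called (101 higher, 86 lower), including all 34, and 1 TE row (HERVK-int). The TE count of 0 was also 1 in the fit of the shMAFK and shLUC libraries alone (AluJr) and 1 with group weights (X5B_LINE). The 1494 rows that differed from the mean of shSMARCA4 and shE2F6 became 631 with all 10 libraries and 135 to 1599 with a library left out. For MAFK, the log2 change ran from −1.58 to −0.19 with a library left out and never passed the threshold. No called result changed direction in these alternatives. For the 34 changed rows this was fixed in advance in the fits with a library left out, because the shMAFK and shLUC libraries did not overlap. Some list medians, which carry no test, changed sign with a library left out: the ectoderm median of −0.37 became 0.26 without shMAFK replicate 1, the antioxidant median of −0.03 became 0.03 and 0.09, the apical median of 0.02 became −0.01 and −0.03, and the DNA replication median of 0.05 became −0.02. No scaling moved the median of all rows by more than 0.01, which tests little because each library already had a median of 594. The causes of these differences were not tested. The unknown depth limits what can be said of rows with low values.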
